A study of Homo sapiens with 12 samples.

Results

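The human nuclear genome carries a copy of a long stretch of the mitochondrial genome near the start of chromosome 1. The GENCODE annotation used in the deposited files names 7 genes in it, MTND1P23, MTND2P28, MTCO1P12, MTCO2P12, MTATP8P1, MTATP6P1 and MTCO3P12, and these 7 of the 60609 annotated genes were taken by their names. Each was set against the mitochondrial gene it copies. The study measured polyadenylated RNA of NS-SV-AC, an established human salivary acinar cell line, in 12 libraries that form 6 groups of 2 replicates. The series title names Sjögren's syndrome and double-stranded RNAs of mitochondria. Cells of the 3 control groups, one per compound, were transfected with what the labels call depc, and those of the other 3 groups for 14 h with poly I:C, which is a synthetic mimic of viral RNA. Within each transfection, one group received DMSO, one 2-CM (2'-C-methyladenosine, an adenosine analogue) and one RES (resveratrol). All were added 24 h ahead of the transfection and once more together with it, the compounds at 20 of a unit the labels write as um, read here as micromolar, and DMSO in equal volume. All groups are the same line, and the labels give growth as 48 h. The labels do not say whether replicates came from separate cultures, so p-values measure only the spread between these samples, which may be technical.

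Fragments of mitochondrial DNA have entered the nuclear genome repeatedly, and the copies are called nuclear mitochondrial sequences. They read as pseudogenes, since the mitochondrial genetic code differs from the nuclear one. The mitochondrial genome itself is transcribed into long RNAs that are cut into individual mRNAs, so a short-read library of polyadenylated RNA holds many fragments that are near-identical to the nuclear copies. Which of the places a fragment is assigned to depends on the bases at which they differ.

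The 7 copies lie on the plus strand of chromosome 1 at chr1:629062-634922 (GRCh38), in the order of their originals. All are annotated as unprocessed pseudogenes with 1 transcript of 1 exon. MTND1P23 is at chr1:629062-629433, MTND2P28 at chr1:629640-630683 and MTCO1P12 at chr1:631074-632616. MTCO2P12 is at chr1:632757-633438, MTATP8P1 at chr1:633535-633741, MTATP6P1 at chr1:633696-634376 and MTCO3P12 at chr1:634376-634922. MTATP8P1 overlaps the start of MTATP6P1, as MT-ATP8 overlaps MT-ATP6. AL669831.3, a gene on the minus strand, spans the whole block. No strand option stands in the file headers, so reads of overlapping genes cannot be told apart.

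Identity to the reference mitochondrial genome ran from 97.6% for MTATP8P1 to 99.1% for the aligned part of MTND1P23. The 7 copies held 77 substitutions, of which 72 were transitions and 5 transversions. By the frame of the original gene, 13 fell at the first, 4 at the second and 60 at the third codon position. MTATP8P1 and MTATP6P1 share 1 of these bases. Beside the substitutions, the alignment of MTCO1P12 to its original held 1 gap of 1 base and that of MTCO2P12 held 1 gap of 2 bases. MTND1P23 covers only the 3′ end of MT-ND1 and MTCO3P12 only the first 547 of the 784 bases of MT-CO3. The mitochondrial sequence of NS-SV-AC itself was not analysed here, so differences are from the reference. How reads that fit both places were divided is not given in the sources used here, so the level of each copy and of its original is uncertain.

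The 4 pairs shown here span the range of levels reported below, with capitals at bases where copy and original differ. MTATP6P1 was the most abundant copy. Its first 300 bases are chr1:633696-633995, against 8527 to 8826 of the mitochondrial genome in MT-ATP6, both on the plus strand, and differ at 5 bases.
MTATP6P1: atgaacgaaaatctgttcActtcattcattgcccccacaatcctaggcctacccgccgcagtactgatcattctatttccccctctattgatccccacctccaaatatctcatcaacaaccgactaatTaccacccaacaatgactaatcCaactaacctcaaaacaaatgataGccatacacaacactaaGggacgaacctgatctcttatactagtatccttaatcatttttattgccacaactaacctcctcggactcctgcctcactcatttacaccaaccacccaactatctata
MT-ATP6: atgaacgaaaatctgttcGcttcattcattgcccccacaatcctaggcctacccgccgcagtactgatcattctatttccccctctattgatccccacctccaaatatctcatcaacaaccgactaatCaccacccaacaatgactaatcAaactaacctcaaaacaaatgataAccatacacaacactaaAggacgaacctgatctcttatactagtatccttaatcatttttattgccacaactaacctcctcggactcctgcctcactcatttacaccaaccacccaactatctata

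MTND2P28 held the longest identical run, 266 bases, which lies in its first 300 bases. They are chr1:629640-629939 in the copy and 4470 to 4769 in MT-ND2, and differ at 2 bases.
MTND2P28: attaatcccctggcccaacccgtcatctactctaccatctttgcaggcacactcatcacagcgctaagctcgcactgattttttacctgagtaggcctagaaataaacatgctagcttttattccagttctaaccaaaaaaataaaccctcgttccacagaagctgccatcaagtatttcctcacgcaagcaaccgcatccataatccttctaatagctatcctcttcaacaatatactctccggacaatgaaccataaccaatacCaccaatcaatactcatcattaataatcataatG
MT-ND2: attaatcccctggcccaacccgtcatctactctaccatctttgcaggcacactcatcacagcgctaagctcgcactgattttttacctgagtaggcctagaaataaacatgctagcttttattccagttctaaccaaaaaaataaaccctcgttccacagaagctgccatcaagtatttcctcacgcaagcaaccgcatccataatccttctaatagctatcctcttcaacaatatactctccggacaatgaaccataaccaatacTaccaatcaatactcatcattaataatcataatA

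MTCO2P12 had a low level against its original. Its first 300 bases are chr1:632757-633056, against 7586 to 7885 in MT-CO2, and differ at 4 bases that are spread along the stretch.
MTCO2P12: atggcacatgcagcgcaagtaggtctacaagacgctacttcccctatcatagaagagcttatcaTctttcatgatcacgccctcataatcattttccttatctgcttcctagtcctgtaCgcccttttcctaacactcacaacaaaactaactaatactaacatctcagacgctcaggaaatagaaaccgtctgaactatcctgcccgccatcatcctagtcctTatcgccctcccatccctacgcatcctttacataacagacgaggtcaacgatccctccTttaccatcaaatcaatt
MT-CO2: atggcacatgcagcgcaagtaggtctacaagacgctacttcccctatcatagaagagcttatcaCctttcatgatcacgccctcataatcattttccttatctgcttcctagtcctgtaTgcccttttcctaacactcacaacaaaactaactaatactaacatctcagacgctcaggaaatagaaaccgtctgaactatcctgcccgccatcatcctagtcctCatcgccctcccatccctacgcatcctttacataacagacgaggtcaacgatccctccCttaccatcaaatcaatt

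MTATP8P1 was the least abundant and is shown whole, at chr1:633535-633741 against 8366 to 8572. It differs from MT-ATP8 at 5 bases, and its longest identical run is 62 bases, shorter than the 101-base reads.
MTATP8P1: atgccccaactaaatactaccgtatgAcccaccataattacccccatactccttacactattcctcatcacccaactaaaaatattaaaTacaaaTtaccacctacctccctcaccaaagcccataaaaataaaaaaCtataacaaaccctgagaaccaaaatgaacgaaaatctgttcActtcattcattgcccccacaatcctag
MT-ATP8: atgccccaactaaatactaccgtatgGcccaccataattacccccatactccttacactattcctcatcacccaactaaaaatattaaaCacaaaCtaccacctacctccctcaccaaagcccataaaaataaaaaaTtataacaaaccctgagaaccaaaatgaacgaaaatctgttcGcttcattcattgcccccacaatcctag

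Libraries held 3.72 to 6.002 aligned gigabases, derived from coverage and FPKM. The annotated transcripts held 31.2 to 49.4 M estimated reads, a separate estimate. The 13 mitochondrial mRNAs took 16.9% to 29.7% of TPM, StringTie's level per transcript length, scaled to the same sum in each library. As a check of the transfection, OAS1, OAS2, IFIT1, IFIT3, IFI27, MX1, ISG15 and IFNB1, 8 genes linked to the interferon response, were compared between poly I:C and depc (limma). Under DMSO 7 of the 8 were called higher, where 4.08% of all genes were called, and under RES 7, where 0.442% were. Under 2-CM all 8 were called higher, where 49.3% of all genes were called. Of the salivary acinar markers, AQP5, MUC7 and STATH were listed at 0 in every library. SLC12A2 had a median of 4.02 TPM and BHLHA15 of 1.01, while PRR4 had one of 0.0563 and AMY1A and LPO of 0. The 8 acinar markers together summed to 4.04 to 9.17 TPM with depc and 1.87 to 8.95 with poly I:C. Of 6 epithelial markers, the keratins KRT8 and KRT18 had median TPM values of 1038 and 668, while EPCAM and CDH1 had medians of 0.322 and 0.341, and KRT5 and KRT19 of 0. The 6 summed to 1682 to 3530 TPM with depc and 1098 to 1733 with poly I:C, and their part in the poly I:C results was not tested. The 5 fibroblast markers summed to 57.1 to 108 TPM with depc and 30.0 to 92.0 with poly I:C. Their medians were 44.9 for COL1A1, 6.03 for LUM, 5.20 for DCN, 0.0281 for PDGFRA and 0 for COL1A2. In bulk RNA, fewer cells of a type and less RNA per cell cannot be told apart.

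The 7 copies together took 0.592% to 1.28% of TPM, and 4.39% to 5.58% of the sum of the 7 genes they copy. All 7 passed the filter on low values. MTATP6P1, the copy of an ATP synthase subunit gene, made up a median of 59.4% of the copies' sum. MTCO1P12, which copies the catalytic subunit of cytochrome c oxidase, made up 21.8%, and MTND2P28, which copies a subunit of complex I, 12.7%. The other 4 copies made up 0.0141% to 3.15% each.

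MTATP6P1 stood at 6123 and 6377 TPM in the DMSO depc libraries and at 7336 and 8107 with DMSO and poly I:C. It stood at 3082 and 2891 with 2-CM and depc, and at 3364 and 3612 with 2-CM and poly I:C. With RES it stood at 5147 and 5736 with depc and at 8254 and 7761 with poly I:C. The 4 libraries with 2-CM were lower than the other 8. In the order of group means, only the highest neighbours, DMSO poly I:C and RES poly I:C, overlapped. Groups of 2 often lie apart here. With depc, 33.3% of all genes were lower with 2-CM than with DMSO without overlap. For this order and those of the copies below, the share of all genes with as few overlaps was not counted.

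MTND2P28 stood at 1333 and 1338 TPM with DMSO and depc, and at 1414 and 1579 with DMSO and poly I:C. With 2-CM it stood at 742 and 716 with depc and at 1091 and 1126 with poly I:C. With RES it stood at 1214 and 1151 with depc and at 1633 and 1784 with poly I:C. No neighbouring groups overlapped in the order of means, which ran from 2-CM depc to RES poly I:C. The share of all genes without such overlap was not counted.

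MTCO3P12, a copy of part of the gene for a core subunit of cytochrome c oxidase, stood at 176 and 201 TPM with DMSO and depc and at 240.1 and 271 with DMSO and poly I:C. With 2-CM it stood at 88.7 and 104 with depc and at 114 and 170.1 with poly I:C. With RES it stood at 154 and 189 with depc and at 277 and 190.1 with poly I:C. The lowest group, 2-CM depc, did not overlap the next, and all neighbours above it overlapped.

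MTCO1P12 ranged from 1477 to 2227 TPM with a median of 1892, and both 2-CM groups lay below the other 4 means. MTND1P23, a copy of part of another complex I subunit gene, ranged from 225 to 373 with a median of 297. MTCO2P12, which copies the gene of the subunit that takes electrons from cytochrome c, ranged from 76.9 to 151 with a median of 114. In these 3 copies, 12 of 15 pairs of neighbouring groups overlapped. MTATP8P1, a copy of the gene for the small ATP synthase subunit 8, ranged from 0.332 to 2.27 TPM, which rests on 1.33 to 13.5 estimated reads a library. No order of groups can be read from so few reads.

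**Figure D1:**
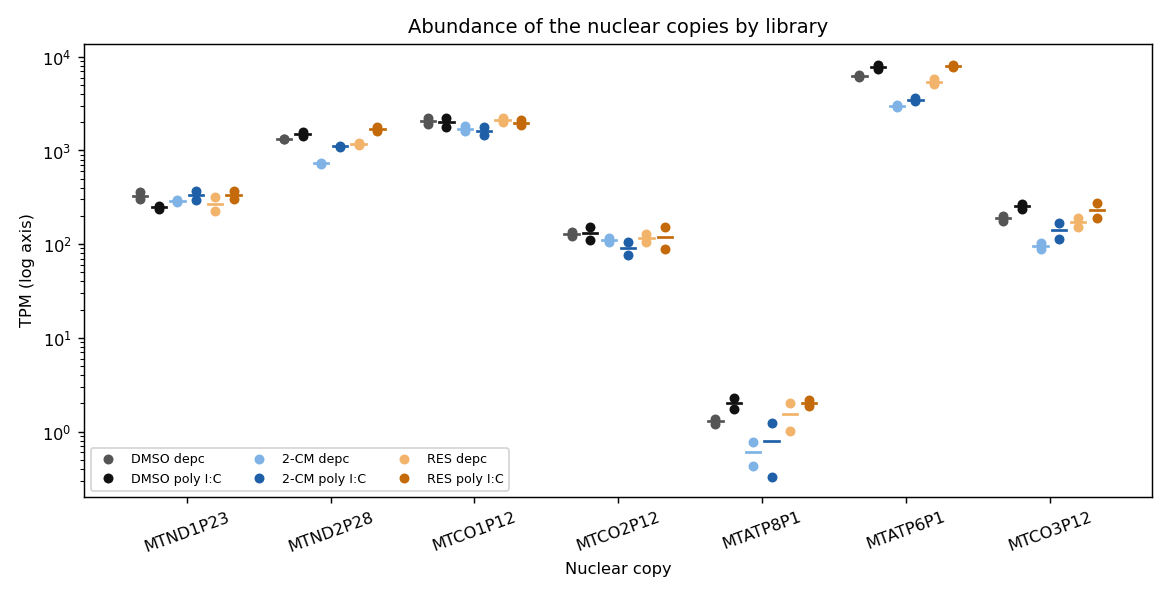
TPM of the 7 copies on a log axis, with 1 point per library, a bar at the mean of the 2 replicates and a colour per group. MTATP6P1 is lowest in the 4 libraries with 2-CM, and MTATP8P1 sits near 1 TPM.

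Set against the gene each copies, the copies spanned a wide range. MTATP6P1 had 20.8% to 23.0% of the TPM of MT-ATP6 with a median of 21.9%, and MTND2P28 had 15.0% to 16.1% of MT-ND2 with a median of 15.4%. MTCO1P12 had a median of 8.06% of MT-CO1 and MTND1P23 of 3.76% of MT-ND1. MTCO3P12 had a median of 0.502%, MTCO2P12 of 0.185% and MTATP8P1 of 0.00760%. The highest median ratio was 2877 times the lowest, over copies whose identity differed by 1.56 percentage points. The lowest, MTATP8P1, rests on 1.33 to 13.5 estimated reads a library, and over the other 6 copies the span was 118 times, with identity differing by 1.19 points.

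Over the 7 copies, Spearman's rho between the median ratio and the longest run of identical bases was 0.79. It was 0.68 between the ratio and identity, and 0.64 between the ratio and the share of windows described next. Over the 6 copies without MTATP8P1 the 3 values were 0.66, 0.49 and 0.43. These are descriptions, since the copies share their libraries and lie side by side. MTATP6P1 stood apart with the highest ratio at a longest run of 141 bases, against 266 for MTND2P28 and 245 for MTCO1P12. The share of 101-base windows of a copy that also occur in the mitochondrial genome was 34.2% for MTND1P23, 27.5% for MTCO1P12, 25.7% for MTND2P28 and 11.4% for MTATP6P1. It was 6.26% for MTCO3P12, 2.06% for MTCO2P12 and 0% for MTATP8P1. The 3 copies with the lowest ratios had the lowest shares. Whether assignment of mitochondrial reads sets these ratios was not tested, and reads were not analysed here.

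**Figure D2:**
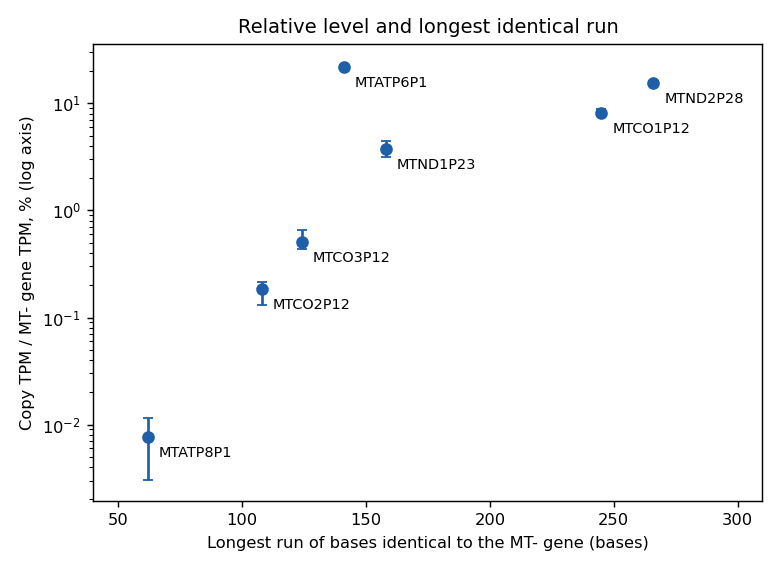
Median ratio of copy to original over the 12 libraries (log axis, percent of TPM) against the longest identical run in bases; bars run from the lowest to the highest library. MTATP8P1, with a run of 62 bases, lies lowest, and MTATP6P1 lies highest at 141 bases.

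The ratios varied little between libraries in the abundant copies. The SD of the log2 ratio over the 12 libraries was 0.031 for MTND2P28, 0.041 for MTATP6P1 and 0.061 for MTCO1P12. It was 0.15 for MTND1P23, 0.17 for MTCO3P12 and 0.18 for MTCO2P12. In these 6 the spread was above the counting error of the estimated reads, which ran from 0.0053 to 0.032. For MTATP8P1 the SD of 0.54 was within its counting error of 0.64. The shallowest library, 2-CM poly I:C replicate 2, held the highest ratio for 4 copies and the lowest for 2, and RES poly I:C replicate 2 held the lowest for 3.

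The log2 ratio of copy to original was compared between transfections and between compounds with a two-sided exact permutation test. With poly I:C against depc, permuted within compound, the 7 p-values ran from 0.185 to 0.917, and the smallest the design allows is 0.00926. MTATP6P1 held 21.8% ± 0.74 of MT-ATP6 with poly I:C and 21.6% ± 0.52 with depc (SD, n = 6). MTCO3P12 had the largest difference, 0.16 on the log2 scale (exact p = 0.185). Single libraries decided its size. Without RES poly I:C replicate 2 it was 0.23, the only one of the 7 pairs past 0.05 with a library left out (exact p = 0.0463). Without RES poly I:C replicate 1 it was 0.086 (exact p = 0.426), and without 2-CM poly I:C replicate 2 it was 0.087 (exact p = 0.380).

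Within transfection, the exact permutation test of a compound against DMSO cannot go below p = 0.0556. MTATP6P1 held 21.1% ± 0.22 of MT-ATP6 with 2-CM and 22.3% ± 0.51 with DMSO (SD, n = 4), a log2 difference of -0.08 at that smallest p (exact permutation test), and the libraries did not overlap. MTCO2P12 held 0.170% ± 0.027 of MT-CO2 with RES and 0.192% ± 0.0094 with DMSO (SD, n = 4), a log2 difference of -0.19 at the same smallest exact p, with overlap. The 4 RES libraries stood at 0.184%, 0.185%, 0.182% and 0.130%. Without the lowest, RES poly I:C replicate 2, the difference was -0.068 (exact p = 0.222), and without RES poly I:C replicate 1 it was -0.31. The other 12 of the 14 comparisons of compounds had larger p-values. These 14 comparisons could not pass 0.05, and none of the comparisons of transfections did. Adjustment over all 21 cannot lower a p-value.

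**Figure D3:**
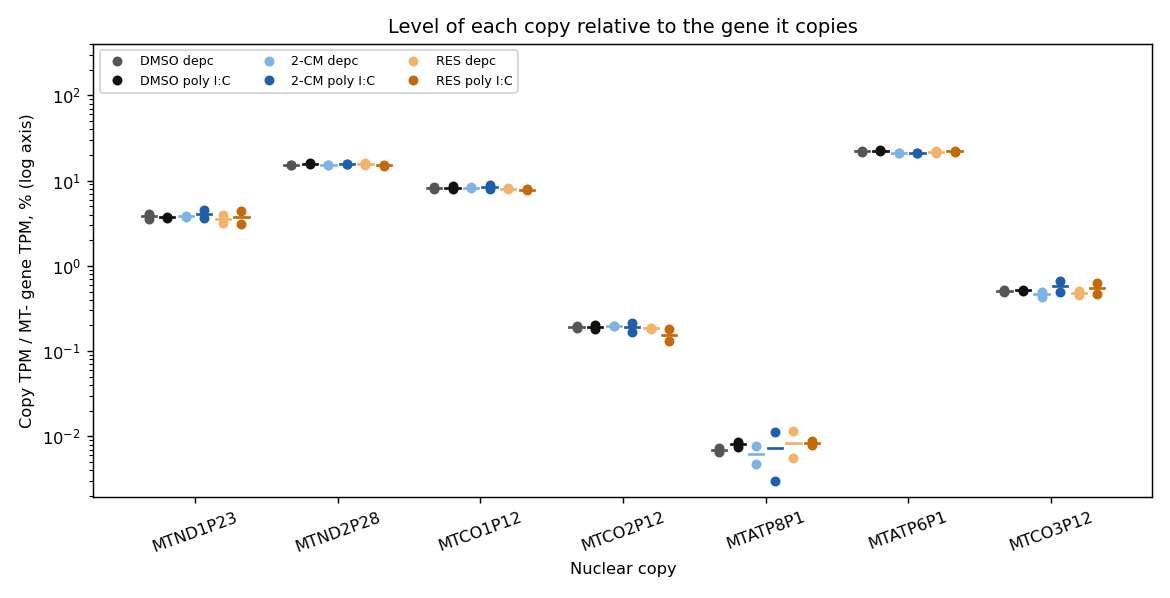
TPM of each copy as a percent of the TPM of the gene it copies (log axis), with 1 point per library and a bar at the mean of the 2 replicates. Groups of a copy lie close together against the distance between copies, and MTATP8P1 scatters most.

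The effect of 2-CM was assessed against DMSO in cells transfected with depc. MTATP6P1 was lower, at -1.07 ± 0.11 on the log2(TPM + 1) scale (SE, limma adjusted p = 0.0430). It was 1 of 7 copies called, against 0.0349% of the 17185 genes tested. At an unadjusted p under 0.05, 3 copies passed, where 4.84% of genes did (limma). The copies' median log2 fold change was -0.52, and that of all genes -0.12. That median of the copies was the value of MTATP8P1, which rests on few reads. At a minimum TPM of 5, which drops MTATP8P1, it was -0.58. The copies' median ran from -0.87 with a pseudocount of 0.1 to -0.18 with GC correction. MTND2P28 at -0.87 (adjusted p = 0.0822, limma) and MTCO3P12 at -0.96 (adjusted p = 0.721, limma) were not called. MTATP8P1 was at -0.52, MTCO1P12 at -0.28, MTCO2P12 at -0.22 and MTND1P23 at -0.18, none of them called. Leaving aside MTATP8P1 for its few reads, both 2-CM libraries lay below both DMSO libraries in 6 of 6 copies, which held for 33.3% of genes. Of the genes copied, MT-ND2 at -0.88 and MT-ATP8 at -0.96 were called lower, and MT-ATP6 at -1.01 was not (adjusted p = 0.0527, limma). Of the 6 other mitochondrial mRNAs, 1 was called lower, MT-CYB at -1.19. Leaving out any 1 of the 12 libraries leaves 1 library in a group, and few or no genes were then called. The call of MTATP6P1 ended too, with values from -1.11 to -1.02. The replicate block (adjusted p = 0.101, limma) also ended it, as did FPKM, upper-quartile scaling, median-of-ratios scaling and CPM of estimated reads. In each of those fits 0% of all genes were called. It ended as well with only the groups compared, where 0.0274% of genes were called, and with GC correction, where 0.0175% were. Under these alternatives to the main fit the values ran from -1.07 to -0.83.

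With poly I:C, MTATP6P1 was again lower with 2-CM than with DMSO, at -1.15 ± 0.11 (SE, adjusted p = 0.0151, limma). It was 1 of 7 copies called, against 0.105% of genes. At an unadjusted p under 0.05, 4 copies passed, where 34.2% of genes did (limma). The copies' median was -0.53, and that of all genes 0.59. They were -1.14 and 0.06 with upper-quartile scaling and -1.21 and -0.01 with median-of-ratios scaling. MTCO3P12 was at -0.87, MTATP8P1 at -0.79, MTCO2P12 at -0.53, MTND2P28 at -0.43, MTCO1P12 at -0.30 and MTND1P23 at 0.41, none of them called. Both 2-CM libraries lay below both DMSO libraries in 5 of the 6 copies other than MTATP8P1, which held for 6% of genes, and above them in 1, MTND1P23, which held for 70.4%. MT-ATP8 at -1.18, MT-ATP6 at -1.05 and MT-CO3 at -1.01 were called lower, as was 1 of the 6 other mitochondrial mRNAs, MT-ND3 at -1.08. The call of MTATP6P1 ended when any 1 of the 8 DMSO and 2-CM libraries was left out, and over all 12 libraries left out the values ran from -1.22 to -1.07. It also ended with FPKM at -1.45, upper-quartile scaling at -1.83, median-of-ratios scaling at -1.93 and a fit of only the groups compared at -1.15. In these fits 0.0265%, 0.0237%, 0.0119% and 0% of all genes were called.

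With RES against DMSO no copy was called with depc, where 1.03% of genes were, or with poly I:C, where 0.157% were (limma). At an unadjusted p under 0.05 there was also no copy in either, where 14.7% and 13.4% of genes passed. The copies' medians were -0.14 and 0.02, and those of all genes 0.15 and 0.28. The copies' median with poly I:C was the value of MTATP8P1, which rests on few reads. At a minimum TPM of 5, which drops MTATP8P1, it was 0.03. The copies' medians were -0.34 and -0.26 with upper-quartile scaling and -0.33 and -0.28 with median-of-ratios scaling, so the direction with poly I:C turned, while those of all genes lay between -0.02 and 0.04. The largest difference was 0.43 in MTND1P23 with poly I:C (adjusted p = 0.426, limma).

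The response to poly I:C was first taken as the average over the 3 compounds. MTND2P28 was higher at 0.43 ± 0.067 (SE, adjusted p = 0.00372), MTATP6P1 at 0.36 ± 0.066 (adjusted p = 0.00637) and MTCO3P12 at 0.47 ± 0.14 (adjusted p = 0.0393, limma). These were 3 of 7 copies called, against 31.2% of genes, so the share lies near the background. The copies' median was 0.26 and that of all genes 0.16. That median of the copies was the value of MTATP8P1, and at a minimum TPM of 5, which drops MTATP8P1, it was 0.20. MTATP8P1 at 0.26, MTND1P23 at 0.04, MTCO1P12 at -0.08 and MTCO2P12 at -0.10 were not called. The genes copied by the 3 called copies were called too, with MT-ND2 at 0.42, MT-ATP6 at 0.35 and MT-CO3 at 0.31. In all, 4 of the 7 genes copied were called higher, so 1 was called without its copy. Of the 6 other mitochondrial mRNAs, 4 were called higher and 1 lower (limma). With upper-quartile or median-of-ratios scaling, or a correction for GC content, no copy was called, where 37.3%, 37.5% and 17.6% of genes were. The copies' median in these fits was 0.20, 0.14 and -0.24, and that of all genes 0.03, -0.01 and 0.15. With no filter and with CPM of estimated reads the call of MTCO3P12 ended (adjusted p = 0.0884 and 0.0556, limma). MTND2P28 and MTATP6P1 were called without each library in turn, while the call of MTCO3P12 held only without 2-CM poly I:C replicate 1, either RES depc library or RES poly I:C replicate 2, and ended without any other, with values from 0.37 to 0.56.

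Within compounds, no copy was called with poly I:C under DMSO, against 4.08% of genes, or under RES, against 0.442%. At an unadjusted p under 0.05, 1 copy passed under DMSO, where 19.7% of genes did, and 2 under RES, where 14.0% did (limma). Under 2-CM, MTND2P28 was called higher at 0.60 ± 0.12 (SE, adjusted p = 0.0247, limma), 1 of 7 copies against 49.3% of genes. The median of all genes in that comparison was 0.61, so MTND2P28 lay near the median gene. Its direction turned with upper-quartile scaling at -0.03, median-of-ratios scaling at -0.25 and GC correction at -0.03. Its call ended without any 1 of the 4 2-CM libraries, which leaves 1 library in a group. Most calls of other genes ended there too. Over all 12 libraries left out in turn, MTND2P28 ran from 0.58 to 0.63. The poly I:C effect under 2-CM differed from that under DMSO in no copy, against 0.0116% of genes, and 1 copy passed at an unadjusted p under 0.05, where 29.7% of genes did. For RES against DMSO it also differed in no copy, against 0% of genes, with 1 copy at an unadjusted p under 0.05, where 1.70% of genes passed (limma).

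The authors' deposited table of poly I:C under 2-CM gave other values, and 46.4% of its genes had an adjusted p under 0.05. It listed MTCO2P12 at -1.13, MTCO1P12 at -0.92, MTND1P23 at -0.64 and MTATP6P1 at -0.62 as lower with poly I:C, 4 of 7 copies. In the authors' deposited table MTATP8P1 at -0.45, MTCO3P12 at -0.28 and MTND2P28 at -0.24 did not pass. The authors' deposited tables listed no copy past 0.05 under DMSO, where 1.25% of genes passed, or under RES, where 0.363% did. These values are on the scale of the authors' size factors, not TPM. With median-of-ratios scaling, the limma fit of poly I:C under 2-CM gave the copies a median of -0.63 and all genes one of -0.01, with MTND2P28 at -0.25. No copy was called in that fit, where 44.8% of genes were. The median of the 7 copies in the authors' deposited table was -0.62. Of the originals, the authors' deposited table under 2-CM listed MT-CO2 at -1.09, MT-CO1 at -0.94, MT-ND1 at -0.72 and MT-ATP6 at -0.61 as lower. It also listed as lower MT-ATP8 at -0.66 and MT-CO3 at -0.59, whose copies did not pass in the authors' deposited table, and MT-ND2 at -0.26 did not pass.

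Across the 7 comparisons of group pairs, the log2 fold change of a copy differed from that of its original by under 0.1 in 38 of 49 cases and by under 0.2 in 44. The largest difference was 0.44, in MTATP8P1 with 2-CM against DMSO and depc. Near 1 TPM, the 1 added to TPM shrinks the change of this copy. Without it, the log2 ratio of MTATP8P1 to MT-ATP8 differed by -0.32 with 2-CM, over both transfections (exact permutation test, p = 0.667). For MTND2P28 it was at most 0.060, for MTCO1P12 0.082, for MTATP6P1 0.094, for MTND1P23 0.12, for MTCO3P12 0.28 and for MTCO2P12 0.32. Copy and original had opposite signs in 5 of the 49 cases, 2 of them in MTCO2P12, which was at -0.17 against 0.15 for MT-CO2 with RES against DMSO and poly I:C. The comparisons share libraries, and a copy and its original may share reads, so these are descriptions.

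**Figure D4:**
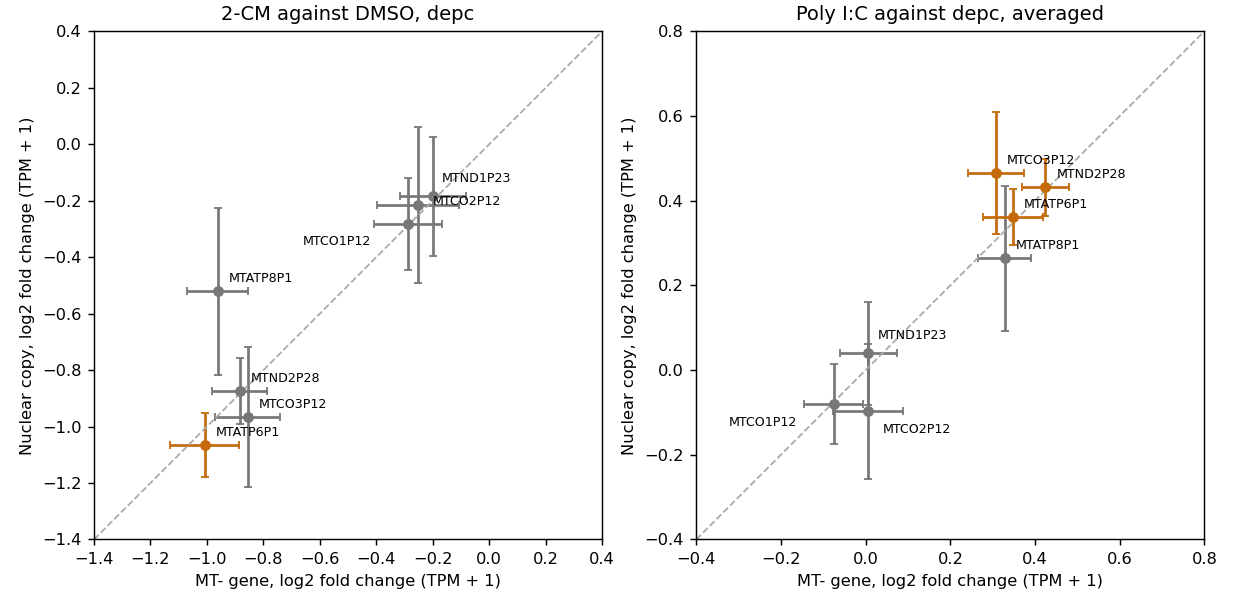
Log2 fold change (TPM + 1) of each copy against that of the gene it copies, with bars of 1 SE, for 2-CM against DMSO with depc (left) and for poly I:C against depc averaged over compounds (right). Orange points were called (adjusted p under 0.05), grey ones were not, and the dashed line marks equal values.

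Over the 12 libraries, the gene most like a copy by Pearson's r of log2(TPM + 1) was its own original in 5 of 7 cases, among 17184 other genes. The r was 0.999 for MTATP6P1, 0.997 for MTND2P28, 0.949 for MTCO1P12, 0.945 for MTCO3P12 and 0.857 for MTATP8P1. For MTATP6P1 the next were MT-ATP8 at 0.990 and MT-ND3 at 0.980, and for MTND2P28 MT-CYB at 0.950 and MT-ND4 at 0.944. For MTCO1P12 the next was PTGDS at 0.936, ahead of MT-TS1 at 0.881. MT-ND1 ranked 4 for MTND1P23 at 0.752, after CDK18 at 0.801, AZIN1-AS1 at 0.761 and FAM166B at 0.753. MT-CO2 ranked 8 for MTCO2P12 at 0.776, and MT-TS1 led at 0.821.

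The ratio between copies of the block varied between groups. MTATP6P1 stood at 3.18 and 2.86 times MTCO1P12 with DMSO and depc and at 1.92 and 1.60 times with 2-CM and depc. With poly I:C it stood at 4.14 and 3.66 times with DMSO and at 2.28 and 2.05 times with 2-CM. With RES it stood at 2.54 and 2.59 times with depc and at 3.92 and 4.17 times with poly I:C. MT-ATP6 against MT-CO1 stood at 1.15 and 1.12 with DMSO and depc and at 0.752 and 0.627 with 2-CM and depc. MTND2P28 stood at 0.692 and 0.601 times MTCO1P12 with DMSO and depc and at 0.462 and 0.396 times with 2-CM and depc. With poly I:C it stood at 0.798 and 0.713 times with DMSO and at 0.738 and 0.640 times with 2-CM, which overlap. These ratios were chosen after their values were seen and have no test.

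**Figure D5:**
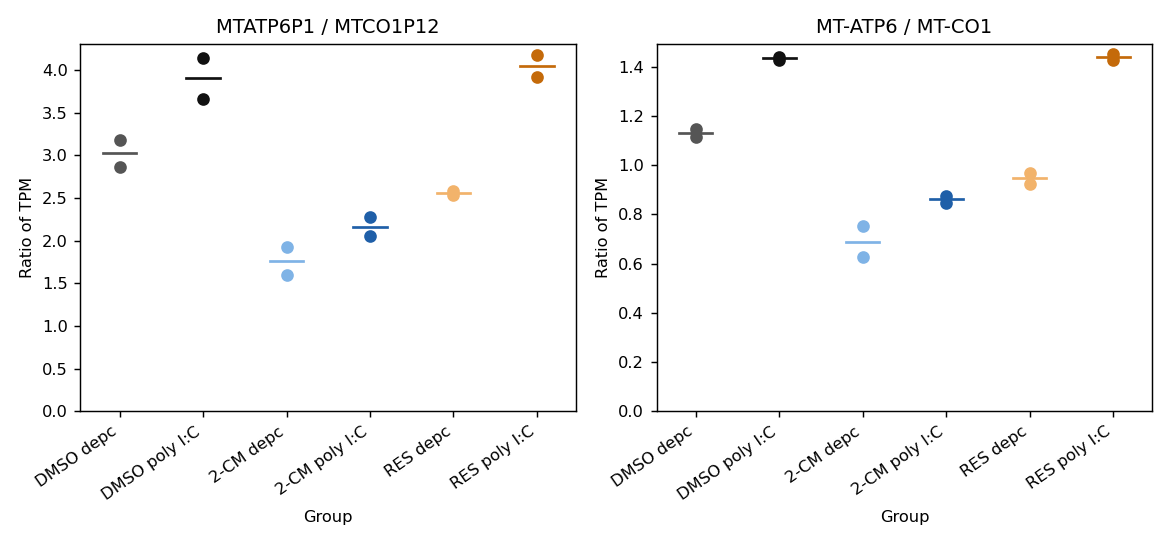
Ratio of TPM of MTATP6P1 to MTCO1P12 (left) and of MT-ATP6 to MT-CO1 (right) by group, with 1 point per library and a bar at the mean. In both panels 2-CM depc is lowest, and the poly I:C group of each compound lies above its depc group.

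Other nuclear copies were scarce. Of 387 further genes named as copies of mitochondrial genes, 5 passed the filter and 261 were listed at 0 in every library. The highest by mean were MTND4P12 at 15.8 TPM, MTND6P4 at 12.4 and MTCO2P2 at 9.49. MTND4P12 was listed at 0 in 9 libraries and reached 89.3 TPM in RES poly I:C replicate 1. MTND6P4 had 0.224% to 0.377% of the TPM of MT-ND6. None of the 5 was called in any of the 10 comparisons, in which 0% to 49.3% of all genes were called. Of 13 MTRNR2L genes, nuclear copies of part of the mitochondrial large ribosomal RNA gene, 2 passed the filter and neither was called in those comparisons. Of 7 annotated neighbours within 100 kb of the block, 2 passed, AL669831.1 at a mean of 2.81 TPM and AL669831.3 at 1.49, and CICP3 followed at 0.0665. AL669831.1 was lower with poly I:C on average over compounds, at -0.44 (adjusted p = 0.0415, limma), where 31.2% of genes were called. By compound it was at -0.85 under DMSO, -0.75 under RES and 0.27 under 2-CM, none of them called. Under 2-CM it had 2.16 and 2.92 TPM with depc and 3.02 and 3.47 with poly I:C.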

How the data were processed

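Per the labels' protocols, libraries of polyadenylated RNA were made with a stranded kit and read as 2 x 101 bases. Per the submitters' processing notes, bcl2fastq 2.20, HISAT2 2.1.0, StringTie and DESeq2 were used with the hg38 build. StringTie was version 2.0.4 with GENCODE 32 and gave each transcript coverage, FPKM and TPM values, per the file headers. How reads that match several places were treated is not given in the sources used here. The 3 comparison tables, 1 per compound, were deposited with a mean normalised signal, log2 fold changes, a test score and p-values.

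Gene TPM is the sum over transcripts (Python 3.11.15). Reads were estimated as coverage times length divided by read length. Because no table of counts was used, limma 3.58.1 in R 4.3.3 fitted the 6 group means to log2(TPM + 1) over all 12 libraries, with variances moderated along their trend. Genes needed a TPM of 1 in 2 libraries, which left 17185. The scale understates changes of low genes. Calls were made at an adjusted p under 0.05 (Benjamini-Hochberg, all genes of a comparison). The code was tested on simulated data. Sequences were read from the reference (GRCh38), where all 14 genes had the same position in GENCODE 44, and aligned locally with Biopython (match 2, mismatch -3, gap opening -6, extension -1). The members and lists were chosen with earlier results of these data known. Named genes were the copies, their originals, other mitochondrial mRNAs, the 3 genes most like each copy, and the 3 most abundant other copies and neighbours. Replicate numbers were not taken to pair the samples, since the labels give no shared batch or day. Differences between replicates correlated positively in 10 of 15 pairs of groups, and negatively in the 5 with RES poly I:C.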

Additional observations from a re-analysis of the deposited data

How the results depend on the processing

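Alternatives were FPKM, upper-quartile and median-of-ratios scaling, no filter, a minimum TPM of 5, CPM of estimated reads, a pseudocount of 0.1, mitochondrial genes and copies left out of the scaling, a replicate block, only the groups compared, GC correction and each library left out. Called copies for 2-CM against DMSO with depc went from 1 to 0 under FPKM, upper-quartile scaling and median-of-ratios scaling. Estimated reads and the replicate block also gave 0, and each of these fits called 0% of all genes. Called copies were 0 as well under only the groups compared and GC correction, where 0.0274% and 0.0175% of genes were called. They were 2 with no filter and a pseudocount of 0.1, where 0.24% and 0.064% were. With poly I:C they went from 1 to 0 under FPKM, both scalings and only the groups compared, to 4 under GC correction, where called genes went from 0.105% to 27.8%, and ran from 0 to 1 with a library left out. For poly I:C under 2-CM they were 0 under FPKM, upper-quartile scaling and median-of-ratios scaling, where 52.7%, 44.7% and 44.8% of genes were called. Under GC correction, where 38.5% of genes were called, MTATP8P1, lower at -0.99, was called in place of MTND2P28. With 2-CM, MTATP8P1 rests on 5.50 and 2.45 estimated reads with depc and on 5.76 and 1.33 with poly I:C. For the averaged response, called copies went from 3 to 0 under upper-quartile scaling, median-of-ratios scaling and GC correction. In these fits 37.3%, 37.5% and 17.6% of genes were called. Called copies went to 2 with no filter and estimated reads, which ended the call of MTCO3P12, where 9.14% and 40.2% of genes were called. Ratio pairs past 0.05 for poly I:C ran from 0 to 1 with a library left out. Cause was not tested. Direction turned for MTND1P23 in the averaged response with upper-quartile scaling (-0.12), median-of-ratios scaling (-0.18) and GC correction (-0.24), and ran from -0.045 to 0.12 with a library left out. It turned for MTATP8P1 under GC correction (-0.29), and for MTCO2P12 it ran from -0.22 to 0.028 with a library left out. For 2-CM with depc, MTCO2P12 was at 0.015 and MTND1P23 at 0.047 with median-of-ratios scaling. For poly I:C under 2-CM, MTND2P28 turned at -0.028, -0.25 and -0.027 with upper-quartile scaling, median-of-ratios scaling and GC correction. The log2 ratio of MTND2P28 to MT-ND2 with poly I:C ran from -0.0048 to 0.020 with a library left out. MTATP6P1 stayed lower with 2-CM in all 23 alternatives of both transfections.

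Differences between replicates 1 and 2 correlated above 0.1 in all 10 pairs among the groups other than RES poly I:C (r from 0.15 to 0.76) and below 0 in its 5 pairs (-0.80 to -0.31). The labels give no shared batch or day, and the number was not used as a pairing. With the replicate block MTATP6P1 was at an adjusted p of 0.101 for 2-CM with depc and of 0.0423 with poly I:C (limma). That block gives RES poly I:C the same sign as the other groups, although its correlations with them were negative. Depth limits MTATP8P1 most.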
